A study of Mus musculus with 9 samples.

Results

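Hexokinase, phosphofructokinase and pyruvate kinase catalyse the regulated steps of glycolysis, and each exists as isoenzymes made from separate genes or by splicing. The 6 genes described here are Hk1 and Hk2, for the hexokinases HK1 and HK2, Pfkl and Pfkm, for the liver and muscle type phosphofructokinases, Pkm, for the muscle type pyruvate kinase, and Slc16a3, for the lactate exporter MCT4. They were taken by name from the deposited table and are 6 of its 14052 genes. All 6 had counts, all 6 passed the filter on low counts, and none was left out.

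RNA was sequenced from kidney cortex of mice about 1 year old on a normal diet. Tumours were sampled in 5 areas (L4, R2, R3, R4, R5) of mice with loxP-flanked Vhl and Pbrm1 alleles (VhlF/FPbrm1F/FKsp-Cre) whose background mixes C57BL/6, BALB/c and 129. Here the Ksp promoter, that of the tubule cadherin Cdh16, drives Cre in kidney tubule epithelium. Normal cortex was sampled in 4 areas (L1, L2, R1, R2) of C57BL/6 wild-type mice with neither floxed allele nor Cre named. Strain therefore goes with group, and the labels carry a single number for all tumour areas and another for all normal areas, so each group may be 1 animal. The p-values then measure the spread between areas.

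Counted reads per library ran from 5143527 to 8250261. All libraries were at 0 for 3989 genes (28.4%). Gapdh, Pgk1 and Eno1, glycolytic genes that every cell uses, were of that kind, so a 0 here is no evidence of silence, and the count of a gene may cover part of its reads. Proximal tubule markers, which define cortex, were all in the table and summed to 27520 to 50581 CPM in tumour areas, against 65343 to 67569 CPM in normal areas (CPM, counts scaled to library size with TMM factors). General leukocyte markers, with Ptprc at 0 throughout, summed to 435 to 946 CPM in tumour areas, against 52.6 to 56.6 CPM in normal areas.

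Hexokinases phosphorylate glucose and so trap it in the cell. HK1 is the widely expressed form, whereas HK2 is the inducible form of muscle, fat and many tumours, and both can dock on mitochondria. Phosphofructokinase commits the sugar to glycolysis, and pyruvate kinase forms pyruvate, which lactate dehydrogenase turns into lactate. MCT4 carries lactate out of the cell. VHL marks the HIF alpha subunits for destruction, and HIF is known to raise transcription of many glycolysis genes through DNA with the core ACGTG or GCGTG.

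The promoters of the 3 genes that were higher in tumour areas are shown because they were read for this core, with that of Hk1 for contrast. The windows run from 250 bases before to 50 bases after a RefSeq transcription start (GRCm38.p6), 5′ to 3′ on the strand of the gene. Capitals mark ACGTG or GCGTG on either strand, so that CACGT and CACGC are the same cores read on the other strand.
Hk2, chr6:82774405-82774704, minus strand: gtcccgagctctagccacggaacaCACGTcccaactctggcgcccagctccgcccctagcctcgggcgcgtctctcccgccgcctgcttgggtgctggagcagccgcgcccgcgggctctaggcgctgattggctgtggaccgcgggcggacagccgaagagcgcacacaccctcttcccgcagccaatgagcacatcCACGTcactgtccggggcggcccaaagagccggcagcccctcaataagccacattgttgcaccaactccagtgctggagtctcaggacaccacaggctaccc
Slc16a3, chr11:120948817-120949116, plus strand: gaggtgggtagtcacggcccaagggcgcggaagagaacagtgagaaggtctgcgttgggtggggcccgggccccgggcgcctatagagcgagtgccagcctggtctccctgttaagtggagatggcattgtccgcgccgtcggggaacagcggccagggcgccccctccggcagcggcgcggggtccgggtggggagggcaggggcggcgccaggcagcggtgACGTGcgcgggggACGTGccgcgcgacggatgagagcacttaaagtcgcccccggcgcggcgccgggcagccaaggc
Pfkl, chr10:78009758-78010057, minus strand: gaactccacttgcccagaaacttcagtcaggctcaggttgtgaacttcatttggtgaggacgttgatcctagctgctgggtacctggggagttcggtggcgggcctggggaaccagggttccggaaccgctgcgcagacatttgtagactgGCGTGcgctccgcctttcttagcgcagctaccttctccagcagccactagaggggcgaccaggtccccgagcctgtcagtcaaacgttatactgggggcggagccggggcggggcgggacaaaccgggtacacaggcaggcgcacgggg
Hk1, chr10:62340372-62340671, minus strand: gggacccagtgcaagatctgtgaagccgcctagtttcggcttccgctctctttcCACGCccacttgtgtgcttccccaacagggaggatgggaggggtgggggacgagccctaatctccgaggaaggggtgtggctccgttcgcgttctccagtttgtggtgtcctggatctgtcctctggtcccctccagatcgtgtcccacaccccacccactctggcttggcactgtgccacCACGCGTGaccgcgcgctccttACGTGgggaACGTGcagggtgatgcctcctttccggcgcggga

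The Hk2 window held 2 ACGTG cores, both on the other strand, which began 226 and 52 bases before the start. The Slc16a3 window held 2 ACGTG cores in the printed sense, 27 and 14 bases before the start. The Pfkl window held 1 GCGTG and no ACGTG. The Hk1 window held as many ACGTG cores as that of Hk2 and also 3 GCGTG cores, of which 2 overlap each other, and a second Hk1 window further upstream held neither. Of 11 windows of the 6 genes, some but not all of those of Pfkm and Pkm also held ACGTG. Among all 32851 windows of the table, 19.6% held ACGTG, 32.4% held GCGTG and 43.8% held either one. A match is a description of letters and shows no binding.

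Across the tumour areas, the inducible or liver type isoenzymes and the lactate exporter were higher, and their partners Hk1 and Pfkm slightly lower. Hk2, Pfkl and Slc16a3 rose, Hk1 and Pfkm fell, and Pkm did not pass the test. Of 7020 tested genes 74.6% were called in either direction (adjusted p under 0.05), 39.3% as higher (2760) and 35.3% as lower (2476). With library size alone 3735 were called as higher and 1689 as lower. Calls in 5 of 6 genes are near that background, and nothing is read from that count. By log2 fold change Slc16a3 stood 28th, Hk2 113th and Pfkl 474th from the top of the 7020 genes, while Pkm stood at place 3423, Pfkm at 4673 and Hk1 at 4923. The groups did not overlap in Hk1, Hk2, Pfkl and Slc16a3, as in 67.8% of all tested genes. Means and shares are given with the SD (n = 5 tumour and 4 normal areas), and log2 fold changes, always tumour over normal, with the standard error. Each adjusted p comes from edgeR's quasi-likelihood test with Benjamini-Hochberg adjustment over all tested genes.

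**Figure D1:**
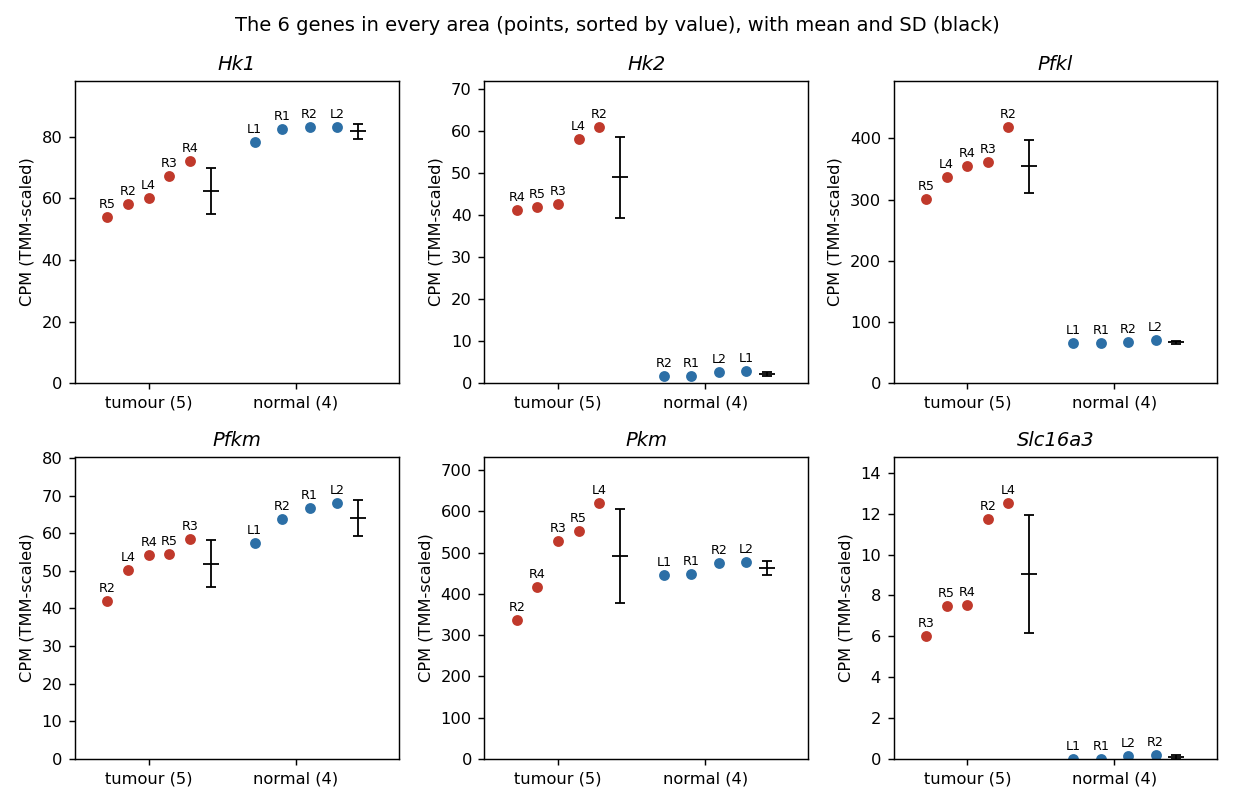
Level of each of the 6 genes in every area, in CPM scaled by TMM factors, with the mean and SD in black. Points are sorted by value within a group. Hk2, Pfkl and Slc16a3 lie higher in all 5 tumour areas, Hk1 lies lower, and Pfkm and Pkm overlap between the groups.

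Hk2 (ENSMUSG00000000628, chromosome 6, 82725025 to 82774454, minus strand, GRCm38) was a trace in normal areas. In CPM it was slightly above Hk1 in tumour area R2, close below it in L4 and further below it in R3, R4 and R5. It stood at 58.0 CPM in tumour L4, 60.9 in R2, 42.7 in R3, 41.2 in R4 and 41.8 in R5, against 2.81 CPM in normal L1, 2.59 in L2, 1.83 in R1 and 1.82 in R2. Tumour areas L4 and R2 were the highest, the other 3 lay close together, and no tumour area came near a normal one. The mean was 48.9 ± 9.69 CPM in tumour areas and 2.26 ± 0.515 CPM in normal areas, a 21.4-fold difference (log2 fold change 4.42 ± 0.21, adjusted p = 6.79e-08). The normal areas together held 52 reads of Hk2, so the normal level rests on few counts.

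Hk1 (ENSMUSG00000037012, chromosome 10, 62268855 to 62379908, minus strand) moved little and in the other direction. It stood at 60.0 CPM in tumour L4, 58.2 in R2, 67.4 in R3, 72.2 in R4 and 53.9 in R5, against 78.1 CPM in normal L1, 83.1 in L2, 82.6 in R1 and 83.0 in R2. All tumour areas lay below all normal areas, with R4 nearest to them. The difference was -0.39 ± 0.08 on the log2 scale (adjusted p = 0.0017), but with libraries scaled by their size alone it was -0.10 and did not pass (adjusted p = 0.214). That scaling raised the median log2 fold change of all genes by 0.29, so small decreases depend on the scaling.

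The balance of both hexokinases does not depend on scaling, since it is a ratio within an area. Per kilobase of the longest coding transcript, Hk2 made up 42.9% of Hk1 and Hk2 together in tumour L4, 44.8% in R2, 33.0% in R3, 30.7% in R4 and 37.6% in R5. In normal areas it made up 2.72% in L1, 2.36% in L2, 1.69% in R1 and 1.67% in R2. By this length Hk2 was still the smaller part in every tumour area. In counts without a length its share was 36.4 to 51.1% in tumour areas, highest in R2, and 2.15 to 3.48% in normal areas. The mean share per kilobase was 37.8 ± 6.09% in tumour areas and 2.11 ± 0.517% in normal areas, a difference of 35.7 percentage points (exact two-sided permutation test, p = 0.0159, the smallest that 5 against 4 areas allow, also after adjustment over the 2 isoenzyme pairs). With the length of all annotated exons in place of the transcript length, an alternative added late, once values were known, the tumour share was 52.6 ± 6.47%, because the annotated exons of Hk1 sum to 8532 bases and those of Hk2 to 5969. Which gene is the larger in tumour areas therefore depends on the length used, and the gain does not. By the transcript length, the summed level of both genes was 20.2 to 24.7 CPM per kilobase in tumour areas, against 18.8 to 19.9 CPM per kilobase in normal areas. By that length the total differed far less than the makeup, though the ranges did not overlap. The sum was not taken with the length of all annotated exons.

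Pfkl (ENSMUSG00000020277, chromosome 10, 77986947 to 78010083, minus strand) had the clearest increase among the abundant members. It stood at 337 CPM in tumour L4, 419 in R2, 362 in R3, 355 in R4 and 301 in R5, against 64.9 CPM in normal L1, 70.8 in L2, 65.8 in R1 and 67.0 in R2. The lowest tumour area, R5, was still several times the highest normal area. The mean was 355 ± 43.0 CPM in tumour areas and 67.1 ± 2.59 CPM in normal areas, a 5.28-fold difference (2.40 ± 0.09, adjusted p = 2.69e-08).

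Pfkm (ENSMUSG00000033065, chromosome 15, 98092589 to 98132451, plus strand) fell slightly. It stood at 50.1 CPM in tumour L4, 41.95 in R2, 58.5 in R3, 54.2 in R4 and 54.3 in R5, against 57.3 CPM in normal L1, 68.1 in L2, 66.6 in R1 and 63.8 in R2. The groups overlapped, since tumour R3 lay above normal L1. The difference was -0.31 ± 0.10 (adjusted p = 0.0155). It was not called with library size alone (-0.02, adjusted p = 0.878) and missed the threshold in areas with the letter R alone (-0.32, adjusted p = 0.0569). The 5′ end of Pfkm overlaps Senp1 on the opposite strand. The strand setting of the counting is not given, so how reads there were assigned is not known.

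Within the pair, Pfkl made up 83.8% of Pfkl and Pfkm per kilobase in tumour L4, 88.5% in R2, 82.7% in R3, 83.5% in R4 and 81.0% in R5. In normal areas its share was 46.6% in L1, 44.5% in L2, 43.3% in R1 and 44.8% in R2. By this length Pfkl was slightly the smaller part in every normal area and by far the larger in every tumour area. In counts without a length its share was 49.7 to 53.1% in normal areas and 84.7 to 90.9% in tumour areas. With the length of all annotated exons it was 33.1 to 36.2% in normal areas and 73.5 to 83.3% in tumour areas. Which gene is the larger in normal areas therefore depends on the length used, and the gain in tumour areas does not. The mean share was 83.9 ± 2.79% in tumour areas and 44.8 ± 1.39% in normal areas, a difference of 39.1 percentage points (exact two-sided permutation test, p = 0.0159, again the smallest possible). By the transcript length, and unlike the hexokinases by that length, the sum was also well above normal. It was 99.4 to 126.8 CPM per kilobase in tumour areas, against 37.3 to 42.6 CPM per kilobase in normal areas. The platelet type gene Pfkp, the remaining phosphofructokinase, is listed at 0 in all libraries, so the share of the whole family could not be had.

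**Figure D2:**
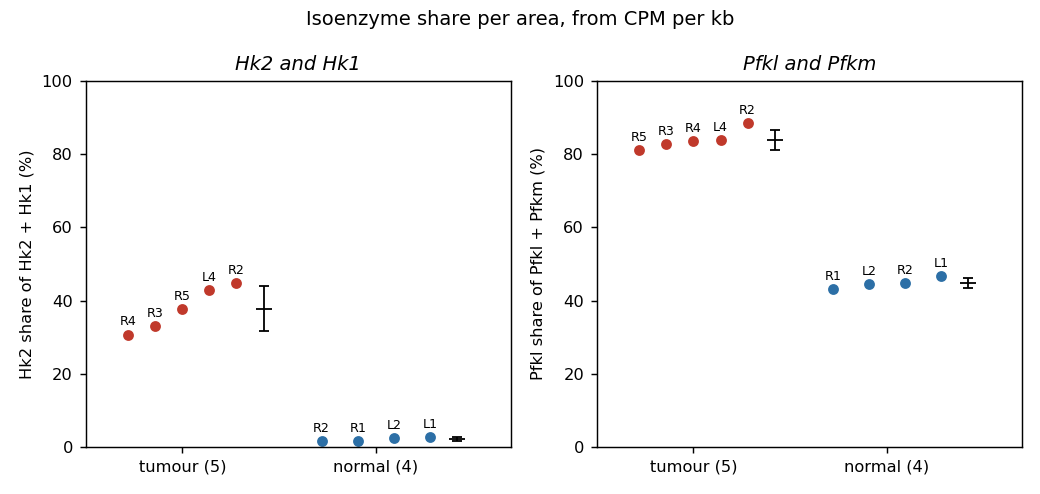
Share of Hk2 in Hk1 and Hk2 (left) and of Pfkl in Pfkl and Pfkm (right) in every area, in percent of CPM per kilobase, with the mean and SD in black. Hk2 lies at 30.7 to 44.8% in tumour areas, against 1.67 to 2.72% in normal areas, and Pfkl at 81.0 to 88.5%, against 43.3 to 46.6%.

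Pkm (ENSMUSG00000032294, chromosome 9, 59656368 to 59679375, plus strand) encodes the splice forms PKM1 and PKM2, which counts per gene cannot separate. It stood at 620.4 CPM in tumour L4, 336 in R2, 529 in R3, 415 in R4 and 553 in R5, against 446 CPM in normal L1, 478 in L2, 449 in R1 and 474 in R2. Tumour areas lay on both sides of the normal range, 3 above it and 2 below. The mean was 491 ± 114 CPM in tumour areas and 462 ± 16.7 CPM in normal areas (0.09 ± 0.15, adjusted p = 0.617), and the tumour spread (23.2% of the mean) was several times the normal one (3.61%). Without tumour L4 the value was -0.00034 (adjusted p = 0.998), and without L4 and R5 it was -0.10 (adjusted p = 0.471). Areas L4 and R5, with the highest Pkm, also had the highest sums of the 7 urothelial markers, at 1240.2 and 244 CPM, against 43.9 to 110.4 CPM in R2, R3 and R4 and 0.997 to 7.09 CPM in normal areas. They were also highest in fibroblast markers, at 2688 and 1749 CPM, against 859 to 1192 CPM in R2, R3 and R4 and 192 to 210 CPM in normal areas. The general leukocyte, T and NK, B and plasma cell, macrophage, muscle and adipocyte sums were likewise highest in L4 and R5. The other areas did not follow this order. R3 had 529 CPM of Pkm with a urothelial sum of 67.2 CPM, while R2 had the lowest Pkm, 336 CPM, with 110.4 CPM. The part of any of these cell types in the Pkm level was not tested.

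Slc16a3 (ENSMUSG00000025161, chromosome 11, 120948480 to 120960868, plus strand) was barely counted in normal areas and present in every tumour area. It had 90 reads in tumour L4, 70 in R2, 33 in R3, 52 in R4 and 49 in R5, against 0 in normal L1, 1 in L2, 0 in R1 and 1 in R2. The tumour levels were 12.5 CPM in L4, 11.7 in R2, 5.99 in R3, 7.55 in R4 and 7.46 in R5, so L4 and R2 were again the highest, as for Hk2. The normal areas with a single read stood at 0.136 CPM in L2 and 0.202 CPM in R2, and the 0 in L1 and R1 allows up to 0.649 and 0.498 CPM for counting error alone (3 counts). The ratio of tumour over normal was 105, with an exact 95% counting interval of 28.8 to 870. The fitted log2 fold change of 6.40 ± 0.52 depends on the prior count (adjusted p = 1.79e-06). Per kilobase Slc16a3 remained the lowest of the 6 genes in both groups, at 2.09 ± 0.668 CPM per kilobase in tumour areas and 0.0195 ± 0.0234 in normal areas.

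Leukocytes are known to express Hk2 and Slc16a3 when activated, and leukocyte markers moved with the group. All 5 tested T and NK cell markers and all 4 tested B and plasma cell markers were called as higher, and 5 of 6 macrophage and dendritic cell markers were, as were 39.3% of all tested genes. Among tumour areas, T and NK markers summed to 284 CPM in L4, 185 in R2, 119 in R3, 141 in R4 and 243 in R5, against 8.14 to 11.9 CPM in normal areas. L4 was the highest for these markers and for Slc16a3, and R3 the lowest for both, but R5, with the next highest marker sum, had a lower Hk2 and Slc16a3 level than R2. Of 7 neutrophil markers only 3 were among the counted genes, 1 of them (Mpo) at 0, and none was tested. Their sum was at most 0.835 CPM in any tumour area, against at most 0.166 CPM in normal areas. With so few markers counted, this sum cannot show whether neutrophils were present. The part of leukocytes in either gene was not tested, and fewer cells of a type cannot be told from less RNA per cell in these bulk samples.

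**Figure D3:**
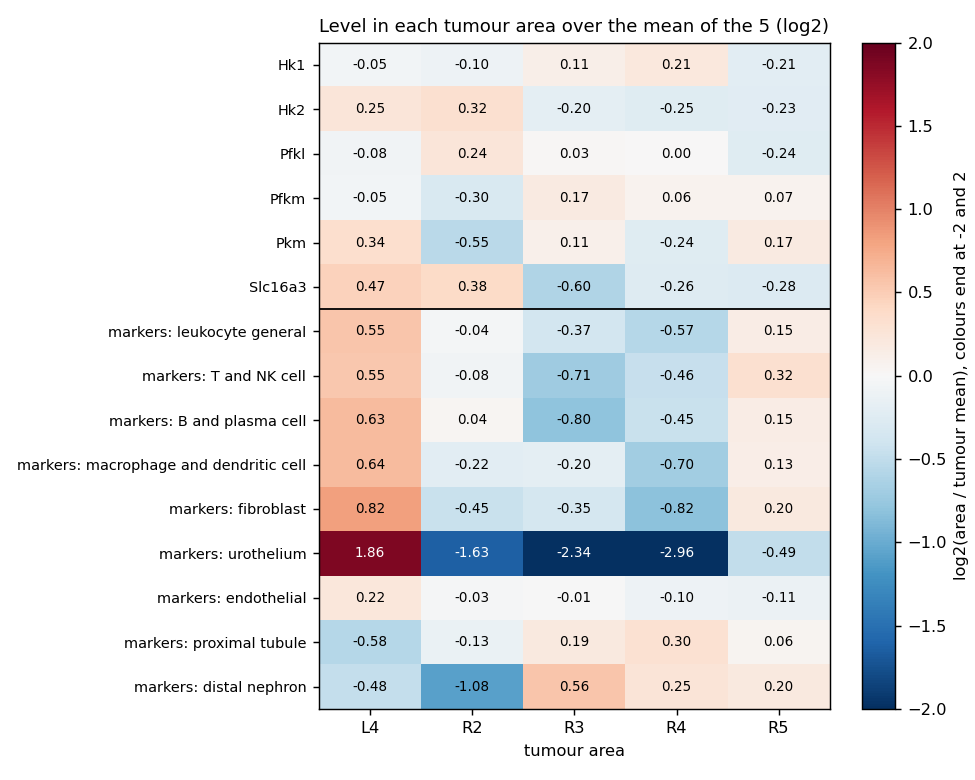
Level of the 6 genes and summed level of marker lists in each of the 5 tumour areas, as log2 of the value over the mean of the 5. Hk2 and Slc16a3 are above their mean in L4 and R2, Pkm in L4, R3 and R5, and most leukocyte and stromal marker lists in L4 and R5.

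Per kilobase, the order of the levels in tumour areas was Pkm at 202 ± 46.7, Pfkl at 95.1 ± 11.5, Pfkm at 18.0 ± 2.17, Hk1 at 14.6 ± 1.72, Hk2 at 8.88 ± 1.76 and then Slc16a3. Only Pfkm and Hk1 among these neighbours had overlapping ranges. In normal areas the order was Pkm at 190 ± 6.85, Pfkm at 22.2 ± 1.65, Hk1 at 19.1 ± 0.559, Pfkl at 18.0 ± 0.694, Hk2 at 0.411 ± 0.0933 and Slc16a3, with overlapping ranges for Hk1 and Pfkl alone. Pfkl thus stood in the fourth place in normal areas and in the second in tumour areas. These levels use the longest coding transcript and may be partial where reads of a gene were not counted.

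The rest of the pathway was read from lists of genes by step. Over all lists 61 genes were tested, with 23 higher and 25 lower in tumour areas, a median log2 fold change of -0.04 against 0.06 over all tested genes. With library size alone 31 were higher and 19 lower. The called share is near the background of 74.6%.

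At glucose entry, 1 of 5 tested carriers was higher and 4 lower, where 74.6% of all tested genes were called in either direction. The higher one was Slc2a10 (GLUT10), at 6.43 ± 1.39 CPM in tumour areas and 3.32 ± 0.394 CPM in normal areas (0.96 ± 0.19, adjusted p = 0.00104). The sodium-glucose carrier of the proximal tubule Slc5a2 (SGLT2) fell to 173 ± 50.2 CPM in tumour areas, against 933 ± 45.0 CPM in normal areas (-2.43 ± 0.20, adjusted p = 2.02e-06), and Slc2a2 (GLUT2), which releases glucose on the blood side of these cells, fell by 3.28 on the log2 scale. The value of Slc2a2 rests on few counts, with 10 tumour and 74 normal reads in all. Slc2a12 (GLUT12) fell by 1.47, and Slc2a5, a fructose carrier, by 0.55, a call lost with library size alone (-0.28) and without tumour L4 or R2 among other areas. Slc2a1 (GLUT1), the carrier best known as a HIF target, is listed at 0 in all libraries and gives no value. Proximal tubule markers, a list that itself includes Slc5a2, fell in 8 of 9 genes, where 35.3% of all tested genes were lower. The part of these cells in the carrier levels was not tested.

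Among other sugar kinases and phosphatases, Adpgk, an ADP-dependent glucokinase, stood at 70.01 ± 6.92 CPM in tumour areas and 93.3 ± 4.85 CPM in normal areas (-0.41 ± 0.08, adjusted p = 0.000681), a call that library size alone removed (-0.12). Hkdc1, a hexokinase relative, stood at 4.26 ± 2.57 CPM in tumour areas and 5.85 ± 0.858 CPM in normal areas (-0.47 ± 0.41, adjusted p = 0.321). Hk3, a further hexokinase gene, is listed at 0. Fbp2, the muscle type fructose bisphosphatase that opposes phosphofructokinase, rose to 65.5 ± 19.8 CPM in tumour areas, against 23.1 ± 2.46 CPM in normal areas (1.51 ± 0.21, adjusted p = 8.89e-05).

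Between phosphofructokinase and pyruvate, changes ran in both directions. Of 7 tested genes 4 were higher and 2 lower, where 39.3% of all tested genes were higher and 35.3% lower. The widely expressed aldolase Aldoa stood at 440.4 ± 60.8 CPM in tumour areas and 221 ± 2.41 CPM in normal areas (0.99 ± 0.10, adjusted p = 5.77e-06). The brain type aldolase Aldoc rose at a very low level, to 2.14 ± 0.424 CPM in tumour areas, against 0.627 ± 0.241 CPM in normal areas (1.69 ± 0.30). The forms of phosphoglycerate mutase moved apart, with the general form Pgam1 higher by 0.78 ± 0.09 and the muscle form Pgam2 lower by 1.49 on the log2 scale. The muscle enolase Eno3 rose by 1.13 ± 0.37 at about 1 to 2 CPM, and this call was lost without normal L2 (0.88, adjusted p = 0.0704), without R1 (0.90, adjusted p = 0.0626) and in areas with the letter R alone (1.22, adjusted p = 0.0532). Eno3 had a test value in 16 of 21 alternatives, Aldoc in 17, and Bsg, described with the lactate carriers, also in 17. Without tumour L4, R4 or R5, only 5 genes of this list passed the filter, and 2 of them were higher.

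Lactate dehydrogenase A, the form that favours lactate, rose. Ldha stood at 226 ± 36.1 CPM in tumour areas and 106 ± 5.11 CPM in normal areas (1.09 ± 0.11, adjusted p = 9.6e-06), with no overlap of the groups. Ldhb and the liver type pyruvate kinase gene Pklr were looked for by symbol, were not found among the counted genes and give no value.

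Of 10 tested monocarboxylate carriers and chaperones 2 were higher and 6 lower in tumour areas, the higher ones being Slc16a3 and Bsg. Over all tested genes 39.3% were higher and 35.3% lower. Slc16a1 (MCT1), which moves lactate in either direction, stood at 215 ± 8.90 CPM in tumour areas and 371 ± 22.6 CPM in normal areas (-0.79 ± 0.06, adjusted p = 7.24e-07). Slc16a7 (MCT2), a high-affinity form, fell to 10.7 ± 5.69 CPM in tumour areas, against 121 ± 12.8 CPM in normal areas (-3.50 ± 0.32, adjusted p = 3.82e-06). Slc16a12, a creatine carrier, fell by 2.28, and Slc5a12, a sodium-lactate carrier of the proximal tubule, fell by 3.27. Slc5a12 had few counts, with 18 tumour and 127 normal reads in all. Bsg (basigin), the chaperone that MCT1 and MCT4 need, rose by 1.74 ± 0.48 (adjusted p = 0.00738), with 62 tumour and 13 normal reads in all, and missed the threshold in areas with the letter R alone (1.26, adjusted p = 0.0519). Of the counts of Slc16a1, Slc16a3 and Slc16a7 summed, Slc16a3 made up 2.59 to 5.501% in tumour areas, against 0 to 0.0401% in normal areas, and Slc16a7 made up 1.63 to 7.52% in tumour areas, against 22.7 to 26.5% in normal areas. Slc16a1 remained the most counted of the 3 carriers in every area, a statement on counts and not per length.

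**Figure D4:**
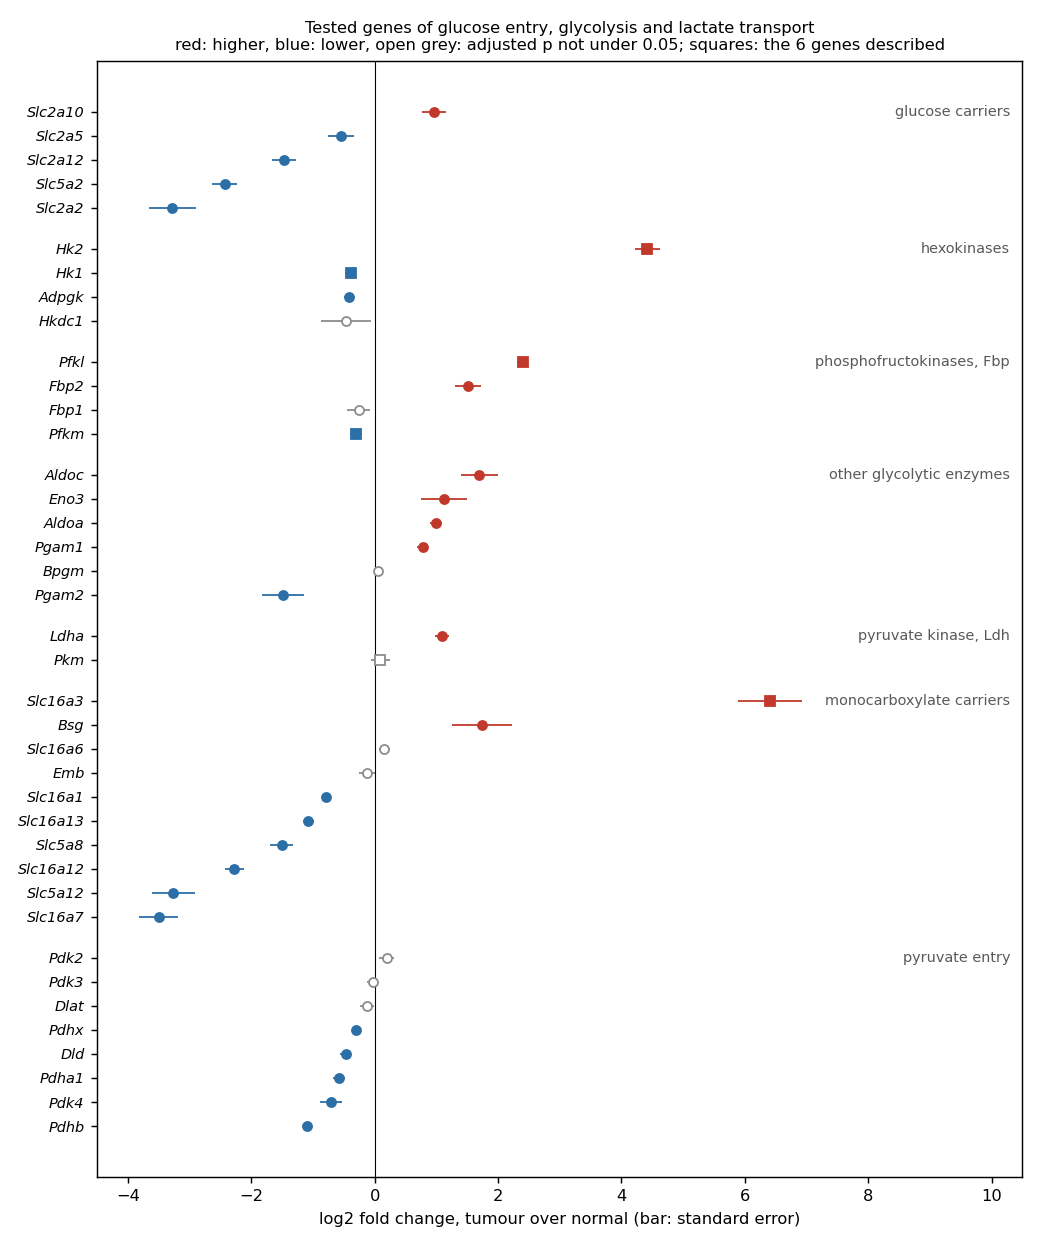
log2 fold change, tumour over normal, of tested genes from glucose entry to lactate transport and pyruvate use, not all of which are shown, with standard errors. Red marks higher and blue lower genes at an adjusted p under 0.05, grey open symbols those that did not pass, and squares the 6 genes described. The fitted value of Slc16a3, at 6.40, depends on the prior count.

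For pyruvate entry into mitochondria, 5 of 8 tested genes were lower and none higher, where 35.3% of all tested genes were lower. With library size alone 3 of the 8 were lower and 2 higher. The pyruvate dehydrogenase subunits Pdhb and Pdha1 fell by 1.10 and 0.57 (adjusted p = 9.27e-07 and 0.000339), and Dld and Pdhx, further parts of the complex, by 0.47 and 0.31. Pdk4, a kinase that switches the complex off, fell by 0.70 (adjusted p = 0.00425). Pdk2, the most counted kinase of this kind, stood at 521 ± 91.7 CPM in tumour areas and 455 ± 11.6 CPM in normal areas (0.19 ± 0.12, adjusted p = 0.167). It was called as higher without tumour L4 (0.30, adjusted p = 0.0021), without L4 and R5 and in areas with the letter R alone. Pdk3 was not called (-0.03, adjusted p = 0.777), and Pdk1 was not among the counted genes. With library size alone Pdk2 and Pdk3 were called as higher. Pdhx and Pdk4 were not called with library size alone (-0.02 and -0.40).

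In the pentose phosphate branch, 5 of 6 tested genes rose and none fell, where 39.3% of all tested genes rose. Rpia rose by 0.91 ± 0.15, Pgls by 0.65 ± 0.09, Tkt and G6pdx each by 0.45, and Taldo1 by 0.32, the last not called in areas with the letter R alone (0.22, adjusted p = 0.0573). Of the outer membrane channels on which hexokinases dock, Vdac2 rose by 0.46 ± 0.08 and Vdac3 by 0.40 ± 0.04, while Vdac1, the most counted, stood at 1401 ± 185 CPM in tumour areas and 1444 ± 15.2 CPM in normal areas (adjusted p = 0.696). Of proteins known to steer Pkm splicing, Nek2, also a mitotic kinase, rose to 37.1 ± 8.16 CPM in tumour areas, against 8.49 ± 0.564 CPM in normal areas (2.12 ± 0.17). Hnrnpa1 rose by 0.31 ± 0.12 (adjusted p = 0.0379), a call lost in DESeq2 (0.29, adjusted p = 0.1) and in 6 of 9 fits with 1 area left out.

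Among genes for HIF and its control, 3 of 9 tested were higher and 5 lower, where 39.3% of all tested genes were higher and 35.3% lower. Egln3, a HIF prolyl hydroxylase that is itself a HIF target, rose to 502 ± 74.0 CPM in tumour areas, against 52.6 ± 3.16 CPM in normal areas (3.26 ± 0.12, adjusted p = 2.41e-08), and Egln1 and Hif3a rose by 0.46 and 1.16. Vhl fell by 0.79, Hif1a fell by 1.09 and Epas1 fell by 0.76, and Hif1an and Arnt2 by 0.92 and 0.55. The counts per gene cannot show how much of the Vhl count comes from cells without Cre.

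**Figure D5:**
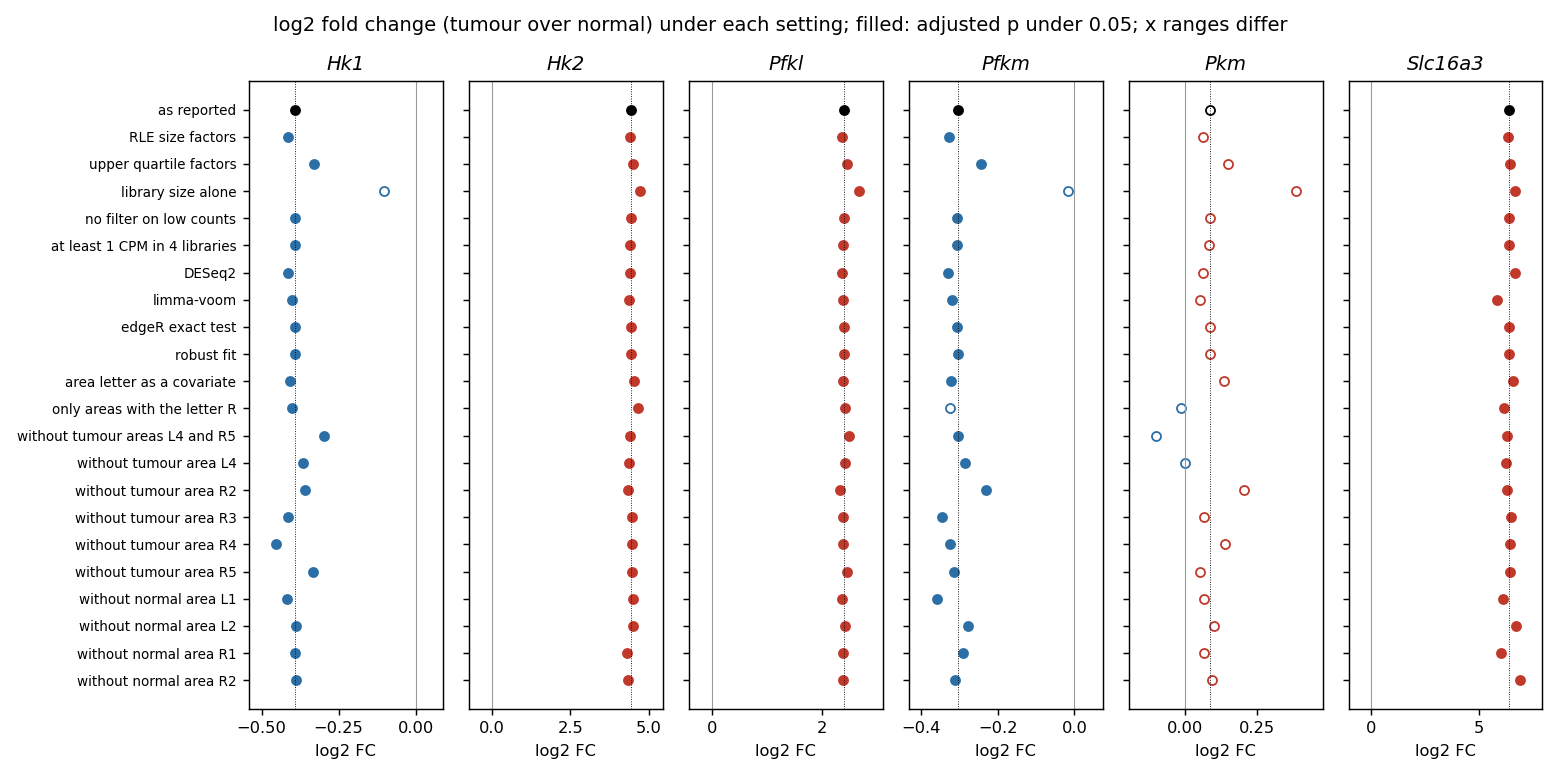
log2 fold change, tumour over normal, of the 6 genes as reported (top) and under 21 other settings. Filled symbols have an adjusted p under 0.05, and the x axes differ in range. Hk2, Pfkl and Slc16a3 pass under every setting shown, Hk1 fails with library size alone, and Pkm crosses 0 in 3 settings.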

How the data were processed

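The authors deposited a table of raw read counts, with genes in rows and each library in a column, and 0 columns lacked a sample. Per the submitters' processing notes, STAR 2.3, HTSeq and edgeR were used, on build mm9. Annotation, strand setting and filters: not given in the sources used here. Per the labels' protocols, poly(A) RNA went into TruSeq libraries read as paired ends. Of 14052 identifiers, 14026 matched a symbol.

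The counts were fitted on the whole table with edgeR 4.0.16 in R 4.3.3: filterByExpr (minimum count 10, minimum total 15) left 7020 genes, TMM factors scaled libraries, and a quasi-likelihood model had group as its only term. CPM use the TMM factors. A standard error is the absolute log2 fold change over the root of the F statistic. Isoenzyme shares were tested by exact two-sided permutation (scipy 1.17.1). Intervals and floors cover counting error only. Alternatives were other scalings and filters, DESeq2 1.42.0, limma 3.58.1 with voom, other edgeR tests, the area letter as a term or areas with R alone, and each area left out.

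Coordinates, transcript lengths and overlaps come from GENCODE on GRCm38 and promoters from RefSeq on GRCm38.p6, not from the build of the counts. Windows of chromosome 18 were not used.

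Some results are not reported here. Genes and lists were chosen with earlier results of these data known, and a list was taken for each step from glucose entry to HIF control. Named besides the 6 genes were up to 3 called genes per list and direction, by size, provided the higher group averaged 1 CPM or more, and isoenzymes of the same reactions. Slc2a5, Pgam1, Dld, Pdhx, Pdk2, Pdk3, G6pdx, Taldo1, Arnt2, Vdac1, Gpi1 and Pfkfb4 were named after their values were seen.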

Additional observations from a re-analysis of the deposited data

Results flagged for a closer look

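Hk1 in normal area L1 stood apart from the other normal areas. It had 78.1 CPM, against 82.6 to 83.1 CPM in L2, R1 and R2, and the gap to the nearest area was 0.898 of the range, above Dixon's 95% critical value of 0.829 for 4 samples. With 16 groups of values checked, chance flags about 1 in 20, and this was the only one flagged. Without normal L1, the log2 fold change of Hk1 was -0.42 (adjusted p = 0.00382 in edgeR).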

How the results depend on the processing

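Each of the 6 genes was refitted under 21 alternatives, and Hk2, Pfkl and Slc16a3 kept direction and call in all of them, at log2 fold changes of 4.32 to 4.72, 2.34 to 2.69 and 5.85 to 6.91. With library size alone, Hk1 (-0.10) and Pfkm (-0.017) lost their calls, and Pfkm also in areas with the letter R alone (-0.32, adjusted p = 0.0569). Pkm, not called under any alternative, was lower in areas with the letter R alone (-0.014), without tumour areas L4 and R5 (-0.10) and without tumour L4 (-0.00034). With 1 area left out, its values ran from -0.00034 to 0.21. The cause was not tested. The isoenzyme shares differed by 34.8 and 39.9 percentage points (Hk2 and Pfkl) in areas with the letter R alone, and by 34.0 and 40.1 without L4 and R5, where so few areas allow no p below 0.133 and 0.0571. The counts of called genes over all lists and over all genes stayed within 1.5 times, but single lists did not: with library size alone, the genes called as lower were 0 in place of 2 among both the 6 genes and the hexokinase family, and 3 in place of 5 at pyruvate entry. Without tumour L4, R4 or R5, the genes called as higher between phosphofructokinase and pyruvate were 2 in place of 4, with 5 in place of 7 tested. No paired analysis was possible because tumour and normal areas came from mice of different genotype. The single area name that the groups share pairs nothing. Depth limits Slc16a3 in normal areas, which held 2 reads.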

Other observations

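For each of the 6 genes, the genes with the most similar pattern were sought among 5285 tested genes averaging 10 CPM or more, by Pearson's r of log2 CPM over the 9 areas. The areas fall into 2 separate groups, so a high r mostly repeats the group difference, and the values are a description. Hk2 was most like Vcam1, an adhesion molecule of inflamed endothelium (r = 0.998), Jak2, a cytokine receptor kinase (0.998) and Vac14 (0.998). Pfkl was most like the tight junction gene Cldn1 (0.999), the thyroid hormone receptor gene Thra (0.999) and Plet1 (0.998). Slc16a3 was most like Neil1, a DNA repair glycosylase (0.997), Irf4, a transcription factor of lymphocytes and plasma cells (0.996) and Rela, an NF-kB subunit (0.996). Only Irf4 of these stayed among its first 3 with a prior count of 0.5 in place of 2.

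The genes that moved little had other partners. Pkm, whose groups overlap, was most like the epithelial protease gene St14 (0.957), the epithelial adhesion gene Epcam (0.915) and the transcription factor gene Gata3 (0.911). Hk1 was most like Dnaja3 (0.978), Sap18 (0.967) and Mcat (0.966), and Pfkm like Fcgrt (0.968), Stc1 (0.965) and Rhbg (0.962).

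Some genes of the pathway had counts but too few for the test. Gpi1, the isomerase between hexokinase and phosphofructokinase, held 58 reads in tumour areas and 13 in normal areas. Pfkfb3, which makes the activator of phosphofructokinase, held 31 and 9, and Pfkfb4 held 21 and 12.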
